A study of Homo sapiens with 12 samples.

Results

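The data compare what decitabine did to the transcriptome of HUCCT1 with what it did in EGI-1, both of them human cholangiocarcinoma cell lines. They comprised the 8 RNA-seq libraries, of 12 in the series, that carried vehicle or decitabine without another drug, chosen by their labels alone. HUCCT1 cells in RPMI1640 received DMSO or 1 μM decitabine, and EGI-1 cells in DMEM received DMSO or 0.5 μM decitabine, each for 72 h and each with 2 libraries. Both media carried the same serum and antibiotic supplement, and no transgene or edited allele was labelled in either line. Since the dose went with the line, what belongs to the cell line and what belongs to the dose cannot be told apart in any difference given here. No label says that the 2 libraries of an arm came from separate cultures, so p-values measure the spread between libraries, which may be technical. The question was which genes answered decitabine unequally in the 2 lines, measured as the log2 change in HUCCT1 minus the log2 change in EGI-1 (the difference between lines).

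Decitabine is a cytidine analogue that is phosphorylated in the cell, built into DNA during replication and there traps DNA methyltransferases, so that methylation is lost over successive divisions. Genes held silent by methylation of CG-rich promoters, among them germline genes, cancer-testis antigens and some tumour suppressors, can then be transcribed. The drug is also known to cause replication stress and to raise inflammatory and interferon programmes in tumour cells. DNA methylation was not among the measurements analysed here.

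The libraries held 32519985 to 34965627 counted reads in HUCCT1 and 25959904 to 28864175 in EGI-1. Markers of biliary epithelium (keratins KRT7, KRT8, KRT18 and KRT19, EPCAM, SOX9) were above the floor of 3 counts in every library, and their 10-gene list summed to 8790 to 15000 CPM (a gene's reads as a share of the library total, in parts per 1000000) in HUCCT1 and 9030 to 9550 in EGI-1. The common dispersion, a measure of variance between libraries beyond counting, was 0.0102 in HUCCT1 and 0.00603 in EGI-1 when each line was fitted apart. The 2 EGI-1 vehicle libraries were the closest pair, with a chi-square per gene of 2.73 against 10.5 to 12.6 in the other arms, which is still above counting noise. Mitochondrial transcripts made up 2.5% to 2.9% of reads in HUCCT1 vehicle and 1.59% to 2.04% with decitabine, and in EGI-1 1.61% to 1.62% and 1.47% to 2.09%. The part of this share in the differences was not tested.

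Decitabine moved many genes in HUCCT1 and few in EGI-1. Of 24577 genes tested with edgeR's quasi-likelihood test at a Benjamini-Hochberg adjusted p under 0.05, 8256 were called in HUCCT1 (33.6%), of which 4725 rose (19.2%) and 3531 fell (14.4%). In EGI-1, 75 genes were called (0.305%), with 74 that rose (0.301%) and 1 that fell (0.00407%). At an unadjusted p under 0.05, 1669 genes passed in EGI-1 and 10326 in HUCCT1. The difference between lines itself was called for 3626 genes (14.8%). It was higher in HUCCT1 for 1839 genes (7.48%) and lower for 1787 (7.27%). Upper-quartile scaling split the calls 2136 to 1326, and without the first or the second EGI-1 vehicle library 2241 and 2152 genes were called.

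The size of the response differed as the counts did. In genes expressed in both lines, the median absolute log2 change was 0.254 in HUCCT1 and 0.0807 in EGI-1, at nearly equal median standard errors of 0.11 and 0.111. Past a log2 size of 1, 2776 genes rose (11.3%) and 633 fell (2.58%) in HUCCT1, against 27 (0.11%) and 1 (0.00407%) in EGI-1. For the difference between lines, 1241 genes were higher in HUCCT1 (5.05%) and 350 lower (1.42%) at that size. Of the genes called higher in the difference, 1785 (97.1%) rose in HUCCT1 and were not called in EGI-1, and of those called lower, 1694 (94.8%) fell in HUCCT1 alone. In 27 genes both lines rose and HUCCT1 rose further.

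**Figure D1:**
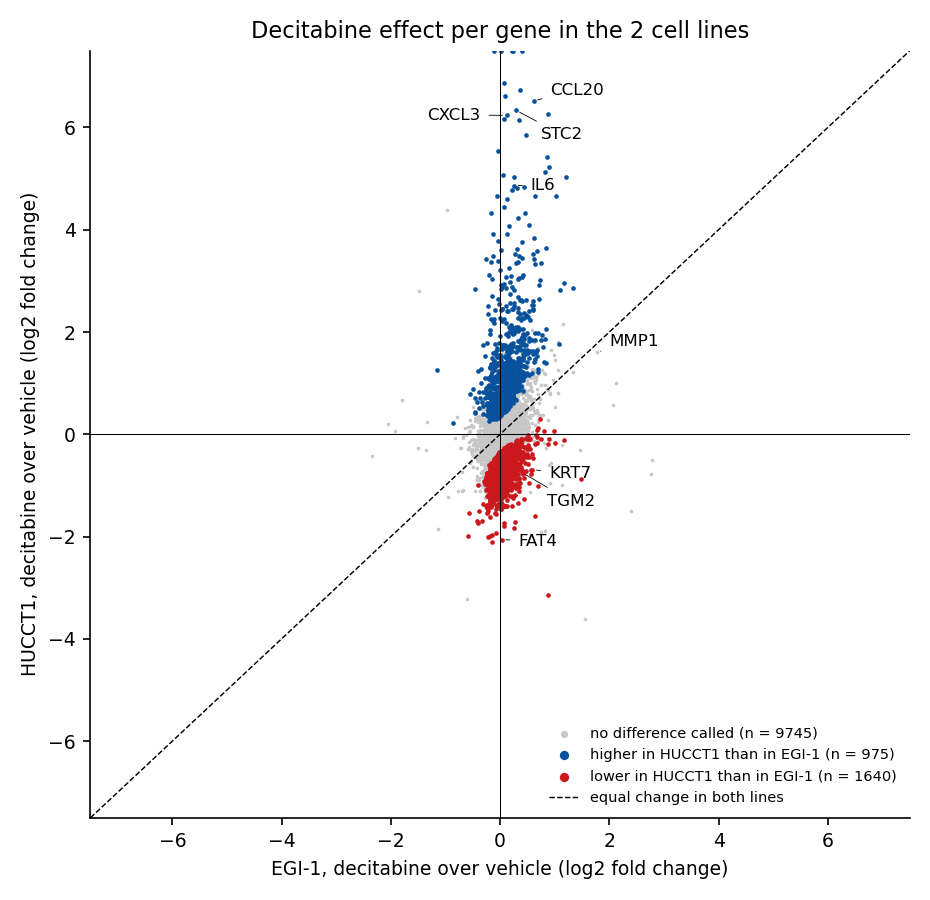
Log2 change with decitabine in EGI-1 (horizontal axis) and HUCCT1 (vertical axis) for the 12360 tested genes with a mean of at least 2 CPM in each line, each point a gene, with 5 points drawn at the upper edge. Blue (975) and red (1640) points, called higher and lower in the difference between lines, lie mostly along the vertical axis, off the dashed line of equal change. Most red points differ by less than 1 log2 unit: of all 1787 genes called lower, 350 passed that size.

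The plainest contrast was in genes that were silent in vehicle and on with decitabine. Among 30638 genes with at most 3 counts in all 4 vehicle libraries, 537 reached at least 10 counts in both decitabine libraries of HUCCT1 (1.75%) and 1 did so in EGI-1 (0.00326%). Of the 537, 493 were still at or under 3 counts in both EGI-1 decitabine libraries. They comprised 334 protein-coding genes, 145 long noncoding RNAs and 52 pseudogenes, and 82 lay on the X chromosome, which held 1534 of the silent genes. In the reverse direction, from silent with decitabine to on in vehicle, 3 genes were counted in HUCCT1 and 2 in EGI-1. With silence set at 0 counts the shares were 0.781% in HUCCT1 and 0% in EGI-1, and with on set at 30 counts they were 0.535% and 0%.

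UCHL1, a ubiquitin hydrolase and one of the genes the study names, had 0 counts in both HUCCT1 vehicle libraries and 936 and 1028 with decitabine, at least 337-fold higher than the floor of 3 counts per library. All 4 EGI-1 libraries had 0 counts of it. SOX17, an endodermal transcription factor, went from 24 and 22 counts to 799 and 1004 in HUCCT1 and had 0 counts in all 4 of EGI-1. SFRP1, a secreted Wnt antagonist, went from 0.128 and 0.161 to 5.04 and 5.11 CPM (scaled by TMM) in HUCCT1, with 0 and 0 counts in EGI-1 vehicle and 1 and 1 with decitabine. These 3 genes rose in HUCCT1, with no overlap between arms, and stayed at the floor in EGI-1. By RT-PCR, the study reports higher mRNA of UCHL1, SFRP1 and SOX17 with decitabine in sensitive and resistant cells alike. By methylation-specific PCR, it also reports a demethylated UCHL1 promoter after decitabine in EGI-1 and HUCCT1, among others. The EGI-1 libraries analysed here showed no such rise in mRNA, and the reason for this conflict was not tested. For a gene at the floor in every EGI-1 library a difference of log2 changes cannot be estimated, and of 1242 such genes, 742 of which rose in HUCCT1, the test called 50.

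Among genes silent in both vehicles for which the test called a difference, DAZL, a germ-cell RNA-binding protein, was the highest in treated HUCCT1. It had 0 and 0 counts in HUCCT1 vehicle and 3598 and 2915 with decitabine (at least 1110-fold higher), against 0 and 1 in EGI-1 vehicle and 0 and 5 with decitabine. USP26, a testis deubiquitinase on the X chromosome, went from 0 and 0 to 9.38 and 8.9 CPM in HUCCT1 (at least 99.7-fold higher) and had 1, 0, 0 and 0 counts in EGI-1. CDH13, an atypical cadherin often methylated in tumours, went from 2 and 0 to 177 and 170 counts (at least 59.4-fold), with 2 and 3 in EGI-1 vehicle and 0 and 6 with decitabine. In each of these genes the HUCCT1 decitabine libraries stood apart from the other 6. SCN2A, a neuronal sodium channel subunit, reached 169 and 132 counts in treated HUCCT1 and at most 4 in any EGI-1 library, and KRT14, a basal keratin, reached 125 and 142 and at most 2. The calls of DAZL, CDH13, SCN2A and KRT14 were lost without the second EGI-1 vehicle library (adjusted p = 0.0515 to 1) and that of USP26 without the first. USP26 and KRT14 were at the floor in all 4 EGI-1 libraries, so that no difference is estimated for them and only their counts are given. These genes passed the count filter through treated HUCCT1. Genes of this kind on in EGI-1 were few: from at most 3 vehicle counts in that line, 5 of 33514 genes reached 10 counts there (0.0149%), against 776 of 33597 in HUCCT1 (2.31%). They were IGFN1, TSSC2, SERPING1, PPP4R4 and MAOB, named after their values were seen.

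PPP4R4, a regulatory subunit of protein phosphatase 4, was silent in both lines and rose in both. Its counts went from 3 and 3 to 28 and 25 in HUCCT1 and from 2 and 2 to 21 and 18 in EGI-1, a log2 change of 3.06 and 3.25. The difference between lines was -0.20 ± 0.892 (SE) with a 95% interval of -1.95 to 1.55, which is wide. EGI-1 was also measured as combination against talazoparib, that is decitabine on top of talazoparib, an alternative chosen after the data were seen. The change of PPP4R4 in EGI-1 was then 0.18 (edgeR adjusted p = 0.972) and the difference turned to 2.89 (edgeR adjusted p = 0.0398). Its rise in EGI-1 was thus seen without talazoparib and not in its presence, and the part of talazoparib was not tested. The bases before the RefSeq start of UCHL1, DAZL and PPP4R4, printed here because these genes went from silent to on in HUCCT1 alone or in both lines, hold CG pairs, the sites that DNA methyltransferases modify. Each stretch is 250 bases long, read 5′ to 3′ on the gene's strand in build GRCh38.p14, with every CG in capitals. They lie at chr4:41256678-41256927 (plus strand, 20 CG), chr3:16605424-16605673 (minus strand, 28 CG) and chr14:94174072-94174321 (plus strand, 38 CG), and the fourth, of PSAT1, at chr9:78296875-78297124 (plus strand, 30 CG). The median was 11 CG over all 27305 promoters of the table and 19 over those of the genes tested, near the count of UCHL1.
UCHL1: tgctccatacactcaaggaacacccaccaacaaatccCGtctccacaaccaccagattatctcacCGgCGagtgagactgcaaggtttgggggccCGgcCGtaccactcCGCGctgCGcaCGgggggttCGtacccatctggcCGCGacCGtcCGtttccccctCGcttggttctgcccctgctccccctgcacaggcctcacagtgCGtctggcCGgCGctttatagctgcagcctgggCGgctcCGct
DAZL: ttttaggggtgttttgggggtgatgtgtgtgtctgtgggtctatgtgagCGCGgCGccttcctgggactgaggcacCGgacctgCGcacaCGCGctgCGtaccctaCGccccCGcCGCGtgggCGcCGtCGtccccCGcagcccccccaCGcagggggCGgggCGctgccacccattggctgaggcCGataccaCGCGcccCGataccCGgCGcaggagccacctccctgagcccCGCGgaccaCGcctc
PPP4R4: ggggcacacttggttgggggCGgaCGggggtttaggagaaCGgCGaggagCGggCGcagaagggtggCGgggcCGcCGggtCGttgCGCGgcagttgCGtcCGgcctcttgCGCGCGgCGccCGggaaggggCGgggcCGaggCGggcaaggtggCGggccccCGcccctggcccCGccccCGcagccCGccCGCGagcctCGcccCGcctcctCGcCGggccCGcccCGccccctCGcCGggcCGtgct
PSAT1: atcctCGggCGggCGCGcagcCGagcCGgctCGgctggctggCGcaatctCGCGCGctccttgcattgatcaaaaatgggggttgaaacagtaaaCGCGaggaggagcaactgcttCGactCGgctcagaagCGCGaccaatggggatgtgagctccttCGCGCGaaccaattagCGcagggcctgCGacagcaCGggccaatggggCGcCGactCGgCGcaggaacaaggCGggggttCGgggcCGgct
These sequences do not set the lines apart, since the letters come from the reference and not from either line. No comparison of calls by CG count is given, since only 54.9% of the genes tested had a promoter in the table (79.8% of the protein-coding ones).

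Genes silent in one line and already on in the other gave the same contrast on a smaller set. Of 594 genes silent in HUCCT1 vehicle and on in EGI-1 vehicle (at least 10 counts), 114 came on in HUCCT1 with decitabine (19.2%). Of 638 genes silent in EGI-1 vehicle and on in HUCCT1, 1 came on in EGI-1 (0.157%). The 114 genes reached a median of 33.8% of the level of EGI-1 vehicle (range 1.08% to 1700%), and 23 of them reached or passed it.

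PSAT1, a phosphoserine aminotransferase of serine synthesis whose promoter is given above, read 0 and 0 CPM (scaled by TMM, as for all single genes here) in HUCCT1 vehicle and 2.56 and 2.68 with decitabine, while EGI-1 held 124 and 122 in vehicle and 120 and 106 with drug. TIMP3, a metalloproteinase inhibitor, read 0 and 0.0321 CPM in HUCCT1 vehicle and 21.3 and 21.6 with decitabine, and in EGI-1 55.8 and 60.7, then 48.1 and 88.6. RUNX3, a RUNT transcription factor, read 0 and 0 CPM in HUCCT1 vehicle and 2.99 and 2.91 with decitabine, against 7.54 and 8.37, then 12.1 and 11.4, in EGI-1. In all 3 genes HUCCT1 moved from none or almost none toward a level that EGI-1 had throughout. ZNF331, a zinc-finger gene, and MKRN3, an imprinted gene, likewise rose from 0 in HUCCT1 to at most 1.15 and 0.393 CPM, below the 10.4 to 11.6 and 3.29 to 4.35 CPM of EGI-1. The histone genes H4C6 (0 and 0 to 6.91 and 9.13 CPM) and H3C8 (0.0321 and 0.129 to 14.1 and 20.8 CPM) were silent or nearly so in HUCCT1 vehicle and read 59.4 to 76.2 and 299 to 381 CPM in EGI-1.

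Cancer-testis antigens, which are normally restricted to germ cells, came on in HUCCT1 alone. Of 80 in the table, 64 were silent in both vehicles, and of these 25 reached 10 counts with decitabine in HUCCT1 and 0 in EGI-1. Over all genes silent in both vehicles the shares were 1.75% and 0.00326%. The list summed to 7.4 and 8.47 CPM (per total reads, as for all sums here) in HUCCT1 vehicle and 197 and 212 with decitabine, against 23.8 and 24.7, then 20.7 and 28.4, in EGI-1. Only 38 members passed the count filter, 34 of them at the floor in all 4 EGI-1 libraries. Of the 4 above it, MAGEA6, VCX2 and MAGEB17 were called higher in the difference. The first 2 lay close to the floor in EGI-1: MAGEA6 had 4 and 2 counts, then 0 and 1, and VCX2 2 and 5, then 1 and 0. With EGI-1 measured as combination against talazoparib, MAGEA6 lost its call (edgeR adjusted p = 0.206), and VCX2 was not called by DESeq2. MAGEB17 was also expressed in EGI-1: it rose from 0.609 and 0.867 to 4.95 and 5.66 CPM in HUCCT1, and read 19.6 and 19.8, then 16.4 and 23.7, in EGI-1. Over all 38, edgeR called 3, DESeq2 12 and limma voom 29, and calls beyond the 4 members above the floor have no measured change in EGI-1 behind them. MAGEA6 shares sequence with other MAGE-A genes, so its reads may be split between copies.

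Germline, meiosis and piRNA genes followed the same course. Of 85 in the table, 52 were silent in both vehicles, of which 19 came on in HUCCT1 and 0 in EGI-1. Over all such silent genes the shares were 1.75% and 0.00326%. TDRD6, a Tudor protein of the germ granule, rose from 0.0962 and 0.0321 to 16.2 and 15.6 CPM in HUCCT1 and read 0.831 and 0.802, then 0.56 and 0.724, in EGI-1. HORMAD1, a meiotic chromosome axis protein, rose from 0 and 0.0964 to 4.25 and 3.93 CPM in HUCCT1 and stayed at or under 0.105 in EGI-1. Of 24 tested members above the floor in EGI-1, 10 were higher in the difference and 0 lower, against 7.48% and 7.27% of all genes. The other 23 tested were at the floor in all 4 EGI-1 libraries, with no measured change there, and their calls are not counted.

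Inflammatory chemokines and cytokines made up most of the genes at the top of the difference. Of the 10 largest positive differences among genes expressed in both lines, 6 were chemokines or cytokines: CXCL3, CCL20, CXCL1, CXCL8, IL6 and CXCL2. Expressed means a mean of at least 1 log2 CPM over the 4 libraries of each line, treated ones included. In HUCCT1, CCL20, LINC02972, CASC15 and ALPG passed through the treated libraries. Their vehicle means there were 1.48, 0.835, 0.513 and 0.995 CPM. The CXCL genes attract neutrophils through CXCR2, CCL20 attracts CCR6-bearing lymphocytes, and IL6 signals through gp130 and is a component of the senescence secretome.

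CXCL3 read 4.3 and 4.63 CPM in HUCCT1 vehicle and 298 and 375 with decitabine, against 13.3 and 15.2, then 13.6 and 17.4, in EGI-1. CXCL1 read 14 and 17.2 CPM, then 970 and 1240, in HUCCT1, and 69.8 and 69.8, then 85.3 and 91.5, in EGI-1. CXCL8 read 18.7 and 16.8 CPM, then 758 and 899, in HUCCT1, and 38.8 and 40.5, then 40.1 and 37.1, in EGI-1. In all 3 chemokines EGI-1 vehicle lay above HUCCT1 vehicle and treated HUCCT1 lay above every other library. The differences between lines were 6.12 ± 0.197, 5.81 ± 0.168 and 5.58 ± 0.146 log2 units (SE, edgeR adjusted p = 1.39e-13, 2.71e-14 and 6.65e-15). CXCL2, next to them on chromosome 4, differed by 4.37 ± 0.249, and since the CXCL genes resemble each other, reads may be shared between them.

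CCL20 read 1.6 and 1.35 CPM in HUCCT1 vehicle and 142 and 130 with decitabine, against 1.6 and 2.06, then 3.19 and 2.35, in EGI-1. IL6 read 6.48 and 8.1 CPM, then 197 and 228, in HUCCT1, and 2.33 and 2.44, then 2.5 and 3.22, in EGI-1. CCL20 was level between the lines in vehicle and IL6 was somewhat higher in HUCCT1, and in both genes the arms of HUCCT1 did not overlap. The differences were 5.91 ± 0.268 and 4.61 ± 0.233 log2 units, and neither gene passed the test in EGI-1. CSF3, the granulocyte growth factor, went from 0 and 0.0643 to 211 and 269 CPM in HUCCT1 and from 0.0639 and 0.174 to 0.691 and 0.651 in EGI-1, where its adjusted p was 0.0505.

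Over the whole list of inflammatory cytokines and chemokines, 23 of 37 tested members were higher in the difference, against 7.48% of all genes, and 3 were lower, with a median of 2.28 log2 units against -0.01 over all genes. In the 33 of these above the floor in EGI-1, 23 were higher and 3 lower, with a median of 2.06. Over the whole list, 31 rose and 4 fell in HUCCT1, and in EGI-1 4 rose (IL11, IL23A, IL24 and IL32) and 0 fell. At an unadjusted p under 0.05, 16 members were higher in EGI-1 and 0 lower. The 3 lower ones were EREG, AREG and IL18, the first 2 of them EGF-family ligands. The list summed to 1460 to 1470 CPM in HUCCT1 vehicle and 5790 to 6410 with decitabine, and to 1810, 1810, 1920 and 1930 in the 4 EGI-1 libraries.

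Targets and regulators of NF-kB, the factor that drives many of these genes, moved with them. Of 35 tested, 19 were higher in the difference and 0 lower, against 7.48% and 7.27% of all genes, with a median of 0.82. In the 33 above the floor in EGI-1 the counts were the same and the median was 0.63. Of all 35, 29 rose in HUCCT1 against 2 in EGI-1 (ICAM1 and NFKB2). In EGI-1, 12 were higher and 0 lower at an unadjusted p under 0.05. ICAM1, an adhesion molecule for leukocytes, rose from 65.3 and 71.5 to 516 and 526 CPM in HUCCT1 and from 21.8 and 20.9 to 35 and 34.9 in EGI-1, so that both lines rose and the difference was 2.22 ± 0.123. SDC4, a syndecan, and TNFAIP2 differed by 2.55 and 2.38 log2 units, and TNFAIP3 and NFKBIA, both inhibitors of the pathway, by 1.90 and 1.19. Levels of a factor's targets are not its activity, which was not measured.

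The 250 bases before the RefSeq start of CXCL1, CCL20 and IL6 are given because these genes lead the difference and each stretch holds a match to the NF-kB consensus (10 bases, either strand), in capitals. They are on the plus strand in GRCh38.p14 at chr4:73869143-73869392, chr2:227813592-227813841 and chr7:22726950-22727199. Of all 27305 promoters, 5.05% hold such a match. The share was 5.87% for the 13497 tested genes that had a promoter in the table. It was 7.97% for the 1230 of these called higher in the difference and 5.0% for the 1341 called lower. Genes without a promoter in the table, of which there were many, are left out. The promoters of CXCL8 and STC2 hold no match in this window. Only full matches were counted, and a near match, such as CXCL8 holds, was not.
CXCL1: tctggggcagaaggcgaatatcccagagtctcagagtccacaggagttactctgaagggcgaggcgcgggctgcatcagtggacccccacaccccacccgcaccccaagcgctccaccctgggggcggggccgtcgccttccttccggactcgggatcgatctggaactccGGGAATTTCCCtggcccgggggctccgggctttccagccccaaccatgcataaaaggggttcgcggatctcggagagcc
CCL20: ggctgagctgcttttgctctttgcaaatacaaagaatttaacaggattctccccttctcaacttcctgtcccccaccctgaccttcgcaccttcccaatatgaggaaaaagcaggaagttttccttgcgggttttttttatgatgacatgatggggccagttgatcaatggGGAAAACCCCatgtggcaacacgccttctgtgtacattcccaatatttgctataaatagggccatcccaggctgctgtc
IL6: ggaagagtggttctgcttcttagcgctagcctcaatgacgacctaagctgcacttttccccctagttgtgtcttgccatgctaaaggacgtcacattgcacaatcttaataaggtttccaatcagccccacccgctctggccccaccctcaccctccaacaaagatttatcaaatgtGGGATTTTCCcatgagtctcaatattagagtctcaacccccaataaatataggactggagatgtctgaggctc
A match is a description of these letters and not of binding.

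**Figure D2:**
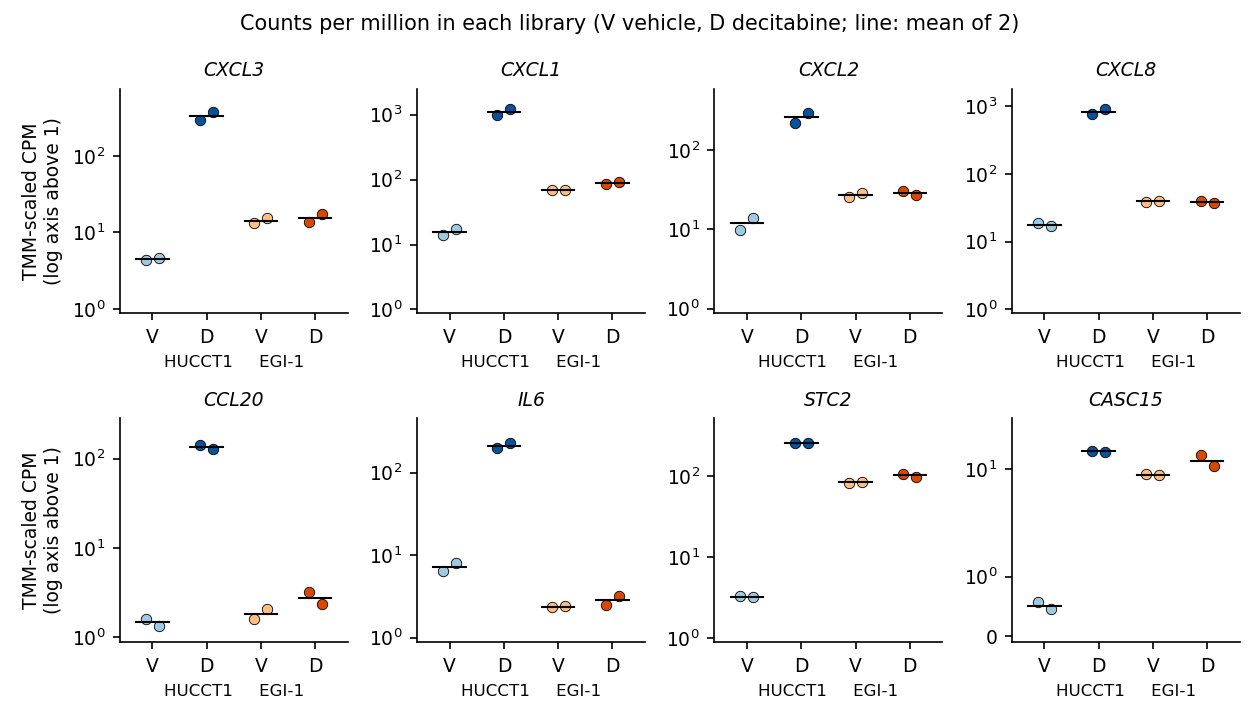
TMM-scaled CPM (log axis above 1 CPM) of 8 of the 10 genes with the largest positive differences, 2 libraries per arm as points and their mean as a line. The HUCCT1 decitabine points lie above the vehicle points of the same line by about the log2 sizes given (4.86 for IL6, 6.34 for STC2), while the 4 EGI-1 points stay close together.

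The remaining genes at the top of the difference were of other kinds. STC2, a secreted glycoprotein induced by endoplasmic reticulum stress, read 3.27 and 3.18 CPM in HUCCT1 vehicle and 259 and 263 with decitabine, against 83.8 and 85.3, then 108 and 98.2, in EGI-1, a difference of 6.05 ± 0.14. A pair of long noncoding RNAs shared this shape: LINC02972 read 0.705 and 0.964 CPM, then 15.4 and 18, in HUCCT1 and 8.79 to 10.4 in EGI-1, and CASC15 read 0.577 and 0.45, then 14.9 and 14.6, with 8.95 and 8.89, then 13.5 and 10.6, in EGI-1. In these 3 genes treated HUCCT1 went past a level that EGI-1 vehicle already had. ALPG, a germ-cell alkaline phosphatase, rose from 0.994 and 0.996 to 34.2 and 40.6 CPM in HUCCT1, with 1.92 and 1.95, then 1.98 and 5.28, in EGI-1. Its difference of 4.33 ± 0.621 lost its call without any 1 of the 4 vehicle libraries (highest adjusted p 0.0681).

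Serine synthesis and ATF4 stress genes, to which STC2 and PSAT1 belong, were higher in the difference for 12 of 29 and lower for 1 (DDIT4), with a median of 0.44. Over all genes the shares were 7.48% and 7.27%. DDIT3, the stress factor CHOP, rose from 10.3 and 10.7 to 26.1 and 27 CPM in HUCCT1 and read 7.85 to 8.92 in EGI-1, a difference of 1.29 ± 0.176. In EGI-1, 0 members passed by edgeR, DESeq2 or limma voom, with 2 higher and 1 lower at an unadjusted p under 0.05. In HUCCT1 15 rose and 2 fell.

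Keratins split by type in HUCCT1. The simple keratins of biliary epithelium fell there, KRT8 by 0.82, KRT18 by 0.90, KRT19 by 0.59 and KRT7 by 0.69 log2 units, while the keratins of stratified epithelium rose, KRT5 by 2.87, KRT6B by 4.32, KRT13 by 5.47 and KRT17 by 3.36. Over 20 tested, 6 were higher and 6 lower in the difference, against 7.48% and 7.27% of all genes. In the 17 above the floor in EGI-1, which leave out KRT14, 5 were higher and 6 lower. KRT7, KRT6A and KRT17 rose in EGI-1, KRT6A from 0.479 and 0.384 to 1.42 and 1.05 CPM, against 0.737 and 0.643 to 12.8 and 14.1 in HUCCT1. KRT6A and KRT6B are near copies and may share reads. The whole biliary list had 6 of 10 members lower in the difference by edgeR, CLDN4 and the 4 keratins among them, and 0 higher, with 1 higher at an unadjusted p under 0.05 and by DESeq2. MUC1, a membrane mucin of the list, rose in HUCCT1 from 26.9 and 29.5 to 122 and 122 CPM (per total reads) and read 17.5 and 21.2, then 19.7 and 37, in EGI-1, with a difference of 1.46 ± 0.41 that was not called (edgeR adjusted p = 0.0797).

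Of 35 genes of the epithelial to mesenchymal state, 11 were higher in the difference and 4 lower, with a median of 0.44. Over all genes the shares were 7.48% and 7.27%. In the 32 above the floor in EGI-1 the counts were the same and the median was 0.34. SPARC, a matrix glycoprotein, read 0.385 and 0.321 CPM, then 25 and 25, in HUCCT1 and 0.383 and 0.174, then 0.922 and 1.05, in EGI-1: both lines rose from the same level, and the difference was 4.35 ± 0.515. MMP2 and THY1 differed by 3.40 and 3.34. The call of MMP2 was lost without either EGI-1 vehicle library, and that of THY1 without the second. CDH1, the epithelial cadherin, was also higher in the difference (0.70). The summed fibroblast markers moved with these genes in HUCCT1: the 8 genes summed to 32.8 to 33.7 CPM in vehicle and 160 to 183 with decitabine, most of it COL1A1, with COL3A1 at the floor in every library, and in EGI-1 to 31 to 44. Of the 6 tested, 5 rose and 1 fell in HUCCT1, the last being LUM, which read 9.23 and 6.32 CPM in vehicle and 4.35 and 3.51 with decitabine. The 5 endothelial markers summed to 3.72 to 5.13, then 26.1 to 26.5, in HUCCT1 and to 20.9 to 28.5 in EGI-1, and the 8 leukocyte markers never passed 6.55, with MS4A1 at 0 throughout. The part of other cells in these differences was not tested.

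Genes of DNA replication and mitosis fell in HUCCT1 and were not called in EGI-1. Of 63 S phase genes, 37 were lower in the difference and 0 higher, against 7.27% of all genes lower, with a median of -0.45. Of 71 G2 and mitosis genes 37 were lower and 0 higher, with a median of -0.47. In HUCCT1 49 and 59 of these fell, in EGI-1 0 and 0, where the medians were 0.01 and -0.04. At an unadjusted p under 0.05, 2 S phase genes were lower and 2 higher in EGI-1 by edgeR, and 6 G2 and mitosis genes lower and 1 higher, and DESeq2 called 1 gene of the second list.

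MCM6, a subunit of the replicative helicase, read 146 and 135 CPM in HUCCT1 vehicle and 72.9 and 72.7 with decitabine, against 178 and 174, then 165 and 159, in EGI-1, a difference of -0.83 ± 0.116. CDCA7, a partner of the remodeller HELLS in maintaining methylation, read 26 and 24.1 CPM, then 8.87 and 9.52, in HUCCT1, and 42.4 and 41, then 36.8 and 33.7, in EGI-1. PLK4, the kinase of centriole duplication, read 56.2 and 47.9 CPM, then 28.7 and 26.2, in HUCCT1, and 29.5 to 34 in EGI-1. The HUCCT1 arms did not overlap in these genes, and BUB1, ANLN and BRIP1 differed by -0.95, -0.94 and -1.05. In bulk RNA fewer cells in a phase and less transcript per cell cannot be told apart.

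Replication-dependent histone genes, whose mature transcripts lack a poly(A) tail, were lower in the difference for 35 of 63 and higher for 3 (H4C6, H3C8 and H1-6), with a median of -0.58. Over all genes the shares were 7.27% lower and 7.48% higher. H2BC7 and H2BC13 were the lowest, at -1.49 and -1.34. By edgeR, DESeq2 and limma voom 0 were called in EGI-1, with 2 lower at an unadjusted p under 0.05. The list summed to 4070 to 4100 CPM in HUCCT1 vehicle and 2680 to 2870 with decitabine, and to 8580 to 9450 in EGI-1. When the EGI-1 effect was instead taken from the libraries that also received talazoparib (an alternative chosen after the data were seen), the list's median turned to 0.13.

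Fanconi anemia and homologous recombination genes, which repair crosslinks and double-strand breaks, were lower in the difference for 15 of 37 and higher for 0, with a median of -0.41. Over all genes the shares were 7.27% lower and 7.48% higher. BRCA1 read 110 and 103 CPM, then 64.6 and 57.8, in HUCCT1, and 134 and 130, then 146 and 126, in EGI-1, a difference of -0.84 ± 0.131. BARD1, its partner, differed by -0.89. Genes of cholesterol and fatty acid synthesis were lower for 15 of 33 and higher for 0, with a median of -0.34. SCD, a desaturase, read 2520 and 2740 CPM, then 849 and 869, in HUCCT1 and 774 and 765, then 658 and 697, in EGI-1. The desaturase thus fell in HUCCT1 to near the level of EGI-1.

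Several genes expressed in both lines fell in HUCCT1 and were not called in EGI-1. FAT4, an atypical cadherin, read 150 and 143 CPM in HUCCT1 vehicle and 36.6 and 33.7 with decitabine, against 6.9 and 6.17, then 7.05 and 6.3, in EGI-1, a difference of -2.09 ± 0.156. VCAN, the proteoglycan versican, read 90.7 and 84.1 CPM, then 26.4 and 22.9, in HUCCT1, and 7.06 and 8.65, then 10.1 and 8.68, in EGI-1, also a difference of -2.09 (± 0.176). BTBD2 read 149 and 176 CPM, then 35.7 and 40.2, in HUCCT1, and 143 to 169 in EGI-1. FAT4 and VCAN were far higher in HUCCT1 than in EGI-1 before treatment, whereas BTBD2 was level. The same held of FAM20C, a secreted kinase (9.26 and 10.9 to 2.87 and 2.98 CPM in HUCCT1, 8.72 to 10.6 in EGI-1). HDAC4, a class II histone deacetylase, was higher in EGI-1 (11.6 and 11.6 to 2.93 and 3.17 CPM in HUCCT1, 47 to 53.9 in EGI-1). The noncoding RNA MANCR and the zinc-finger gene BNC2 differed by -1.99 and -1.82. INTS3, a subunit of Integrator, had the lowest estimate, -4.03 ± 0.784, but its EGI-1 libraries read 1.89 and 1.88, then 5.17 and 1.7 CPM, and the call was lost without any 1 of the 4 vehicle or of the 2 HUCCT1 decitabine libraries.

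Genes called in opposite directions numbered 6, all of them down in HUCCT1 and up in EGI-1, and none was called the other way. GLI2, a transcription factor of Hedgehog signalling, read 92.1 and 120 CPM in HUCCT1 vehicle and 51.7 and 60.5 with decitabine, against 0.543 and 0.418, then 1.35 and 1.52, in EGI-1. KRT7 read 6280 and 7300 CPM, then 3900 and 4510, in HUCCT1, and 38 and 41.3, then 57.1 and 62.4, in EGI-1. TGM2, a transglutaminase, read 10200 and 11300 CPM, then 6190 and 6630, in HUCCT1, and 305 and 297, then 399 and 393, in EGI-1. In these 3 genes HUCCT1 started far above EGI-1 and the gap narrowed. The differences were -2.48 ± 0.329, -1.28 ± 0.134 and -1.14 ± 0.11. FAM167A (133 and 150 to 46.3 and 47.4 CPM in HUCCT1, 8.02 and 7.78 to 12.7 and 11.8 in EGI-1) had the same shape. AFAP1L2, an actin-associated adaptor, differed by -0.79. With EGI-1 measured as combination against talazoparib, GLI2 changed there by 0.45 (edgeR adjusted p = 0.634, against 1.56 in the first measure) and its difference was -1.36, while FAM167A, KRT7 and TGM2 were called higher in EGI-1 again.

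**Figure D3:**
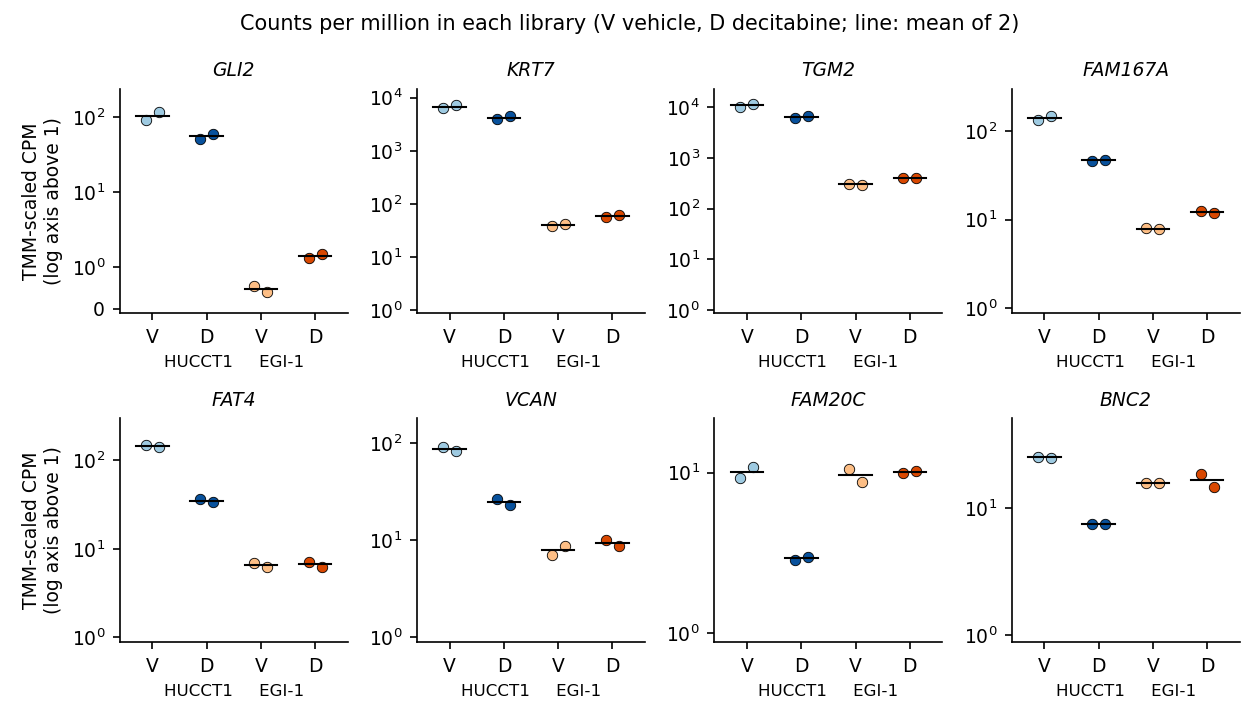
TMM-scaled CPM (log axis above 1 CPM) of 8 genes called lower in the difference, 2 libraries per arm as points and their mean as a line. In the upper row (GLI2, KRT7, TGM2, FAM167A) HUCCT1 falls and EGI-1 rises; in the lower row (FAT4, VCAN, FAM20C, BNC2) HUCCT1 falls and no EGI-1 call was made.

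The few genes that EGI-1 did raise mostly rose in HUCCT1 too, and the 2 effects share no library. Of the 74, 53 rose in HUCCT1 (71.6%, against 19.2% of all genes) and 61 had the same sign (82.4%, against 50% of all genes). Their median log2 change was 0.79 in EGI-1 and 1.12 in HUCCT1. Taken the other way, 67.1% of the genes that rose in HUCCT1 were above 0 in EGI-1, against 54.6% of all genes, with a median of 0.10 there and 1.32 in HUCCT1. Of the genes that fell in HUCCT1, 49.6% were below 0 in EGI-1, against 43.3% of all. Across the 12359 genes expressed in both lines, Pearson's r between the effects was 0.30 and Spearman's rho 0.28. These describe genes, which are not independent replicates.

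Of the 53 genes that rose in both lines, 27 rose further in HUCCT1, 1 (FLNC, filamin C) rose further in EGI-1, and 25 had no called difference. For 18 of the 25 the whole 95% interval lay within 1 log2 unit of 0. MMP1, the interstitial collagenase, read 52 and 44.6 CPM, then 153 and 140, in HUCCT1, and 1.31 and 1.29, then 4.87 and 3.98, in EGI-1, with a difference of -0.16 (interval -0.581 to 0.251). ANKRD1, a target of YAP, read 225 and 222 CPM, then 422 and 405, in HUCCT1, and 39.7 and 37.4, then 74.2 and 65.1, in EGI-1, with a difference of 0.03 (interval -0.208 to 0.277). FOLR1, the folate receptor, differed by -0.08 (-0.547 to 0.396) and JAG2, a Notch ligand, by 0.08 (-0.357 to 0.521). These 4 genes started at different levels in the lines and rose by about the same log2 amount, and they were named after their values were seen. LAPTM5, a lysosomal membrane protein, rose from 7.48 and 7.08 to 17 and 16.4 CPM in EGI-1 and from 0.289 and 0.482 to 12.4 and 13 in HUCCT1. RGPD6, the 1 gene that fell in EGI-1 (5.3 and 3.42 to 0.625 and 0.434 CPM), belongs to a family of near-identical copies and is uncertain.

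A second measure in EGI-1 came from the 4 libraries that received talazoparib, as combination against talazoparib, an alternative chosen after the data were seen. It gives the effect of decitabine on top of talazoparib and is not a repeat of the first measure. Whether talazoparib changed the effect of decitabine was not tested. Of the 74 genes that rose in EGI-1, 72 were above 0 in the second measure too and 48 passed the test, with a median of 0.57 against 0.79. With that measure in place of the first, 1513 of 1836 genes called higher in the difference (82.4%) and 1368 of 1787 called lower (76.6%) were called again in the same direction, and 4 with the opposite sign. The HUCCT1 libraries were the same in both.

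Among the genes the study names, the mRNA response of DNA methyltransferases differed little between the lines. The study measured their protein, and reports less DNMT1 and DNMT3A with the drugs in every cell line it examined. Protein was not measured here. DNMT1 read 342 and 373 CPM in HUCCT1 vehicle and 284 and 292 with decitabine, and 399 to 427 in EGI-1. It fell in HUCCT1, and the difference of -0.31 ± 0.115 was not called (edgeR adjusted p = 0.0765, and 0.00745 to 0.251 over the alternatives). DNMT3A and DNMT3B differed by 0.07 (interval -0.266 to 0.397) and 0.28 (-0.00571 to 0.566). CDKN1A, the cell cycle inhibitor p21, read 114 and 137, then 178 and 213 CPM, in HUCCT1, and 64.3 and 63.5, then 95.7 and 80.4, in EGI-1. It rose in HUCCT1 and was not called in EGI-1 (log2 change 0.46, edgeR adjusted p = 0.106). The difference of 0.18 (-0.121 to 0.483) was not called. With EGI-1 measured as combination against talazoparib, CDKN1A was called higher there (0.72, edgeR adjusted p = 0.000219) and the difference was -0.06.

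LMNB1, the lamin that falls in senescent cells, read 246 and 243 CPM, then 98.6 and 109, in HUCCT1, and 253 and 252, then 220 and 222, in EGI-1, a difference of -1.04 ± 0.116. MKI67, the proliferation marker, read 1030 and 1090 CPM, then 737 and 624, in HUCCT1, and 987 and 995, then 1020 and 889, in EGI-1, a difference of -0.59 ± 0.129. PARP1, the main target of PARP inhibitors, rose from 218 and 220 to 322 and 310 CPM in HUCCT1 and read 251 to 267 in EGI-1, a difference of 0.52 ± 0.112. PARP1 thus moved up and PARP2 down (-0.46 ± 0.145) in the difference, though the call of PARP2 was lost under 11 of 19 alternatives. H2AX differed by -0.14 (-0.44 to 0.159). MICA and MICB had 0 to 8 counts in all 8 libraries and were not tested.

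Lists that bear on how the drug enters and acts moved in part. Of 19 tested writers, readers and erasers of DNA methylation, 4 were lower in the difference (IDH1, ZBTB4, UHRF1 and ZBTB38) and 0 higher, with 1 higher at an unadjusted p under 0.05 and by DESeq2. UHRF1, which recruits DNMT1 to replicating DNA, read 222 and 246 CPM, then 141 and 147, in HUCCT1 and 257 to 275 in EGI-1. Of 29 genes of nucleoside uptake and metabolism, 7 were lower and 1 higher. The shares called in the difference were 21.1% and 27.6% in these lists, against 14.8% of all genes. In HUCCT1, 8 and 11 members fell, against 14.4% of all genes, and 2 and 5 rose, against 19.2%. NT5E, the ectonucleotidase CD73, differed by -1.17 ± 0.123 and the transporter SLC29A2 by -0.68 ± 0.118, while the concentrative transporter SLC28A1 rose in HUCCT1 from 0.0962 and 0 to 0.754 and 0.982 CPM, below the 3.06 to 4.92 CPM of EGI-1.

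Interferon-stimulated genes went both ways. Of 75 tested, 10 were higher in the difference and 17 lower, with a median of -0.06, and 19 rose and 21 fell in HUCCT1 while 1 (IFITM2) rose in EGI-1. The higher ones included HERC5, MX2 and MX1, and the lower ones IFIT1, IFIT2, IFIT3 and IFI44. GBP5, counted among the higher, was at the floor in all 4 EGI-1 libraries, and its call was lost without the second EGI-1 vehicle library, with all 12 libraries fitted and with the second EGI-1 measure. Of 26 nucleic acid sensors and adaptors, 1 was higher (IKBKE, 0.92 ± 0.125) and 4 lower, with TLR3, the endosomal sensor of double-stranded RNA, at -1.82 ± 0.229. Of 17 genes listed under MHC class I presentation, 1 was higher (CIITA, by name the class II transactivator) and 1 lower (ERAP2). The shares of this MHC list are near the 7.48% and 7.27% of all genes. Of the interferon-stimulated genes 36.0% were called in either direction and of the sensors 19.2%, against 14.8% of all genes. The call of ERAP2 was lost without the first HUCCT1 vehicle, the second EGI-1 vehicle or the first EGI-1 decitabine library (adjusted p up to 0.0819). Of 46 p53 targets, 12 were higher and 6 lower (39.1% called), with a median of 0.06. In EGI-1, 0 p53 targets were called by edgeR and 2 by DESeq2, and 8 were higher at an unadjusted p under 0.05.

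The remaining lists were mixed, and their counts stand beside 7.48% of all genes higher in the difference and 7.27% lower. Of 48 tested Wnt antagonists and tumour suppressors known for promoter methylation, 13 were higher in the difference and 4 lower. The median was 0.50, and 0.38 over the 37 above the floor in EGI-1, which hold the same calls. The higher ones included HOXA9 (5.63), DKK3 (2.67) and BNIP3 (2.15), and the lower ones were IGFBP7, DKK1, THBS1 and DAPK1. Of 28 AP-1 and immediate early genes, 8 were higher and 4 lower, with DUSP1, a MAP kinase phosphatase, at 1.30 and FOS at -1.48. The call of FOS was lost with all 12 libraries fitted and with the second EGI-1 measure (edgeR adjusted p = 0.128 in the latter). Of 40 clustered protocadherins 7 were higher and 4 lower, and their shared exons leave reads uncertain. Of 30 imprinted genes 4 were higher and 4 lower. Of 11 genes derived from endogenous retroviruses 3 were higher (HHLA2, ERVH48-1 and ERV3-1) and 3 lower. The call of HHLA2 was lost without the second HUCCT1 vehicle, the first HUCCT1 decitabine or the first EGI-1 vehicle library. Of 13 mitochondrially encoded genes 3 were lower by edgeR (MT-ND6, MT-CO3 and MT-CO1), 9 by DESeq2 and 1 by limma voom, and 0 were higher by any of these or at an unadjusted p under 0.05. The calls of MT-CO1, MT-ND6 and MT-CO3 were lost under 11, 7 and 6 of 19 alternatives, each without either HUCCT1 vehicle library. Of 6 metallothioneins 0 were called, with 2 lower at an unadjusted p under 0.05 and 1 called by limma voom. Of the 2 hepatocyte and 4 leukocyte markers tested 0 were called by edgeR, with 1 of each list higher at an unadjusted p under 0.05, and 1 hepatocyte marker was called by DESeq2 and 1 leukocyte marker by limma voom.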

How the data were processed

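Total RNA of HUCCT1 and EGI-1 cells was sequenced. The authors deposited 1 table of raw gene counts (60651 genes, 12 libraries), whose columns were matched to samples by name, with 0 columns of other samples. The processing notes per the labels name fastp, Trim Galore, HISAT2, featureCounts and GRCh38, whereas the study's methods, written for EGI-1, name fastp 0.12.5, STAR 2.7.0f, RSEM and GRCh38. The strand setting and the treatment of reads that map to several places are not given in the sources used here, so overlapping, antisense and near-identical genes are uncertain. A symbol was paired with 60437 of the gene IDs.

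Counts of 8 libraries were filtered by edgeR's filterByExpr (24577 genes kept), scaled by TMM and fitted in edgeR 4.0.16 (R 4.3.3) with 1 coefficient per arm, and the interaction and both line effects were tested by robust quasi-likelihood. Adjusted p-values are over all 24577 genes, standard errors are the log2 change over the square root of F, and intervals (95%) are ± 1.96 SE. The count floor is 3 per library, and floors cover counting error only. Depth, 25959904 to 34965627 reads, sets what low counts can show. Alternatives used DESeq2 1.42.0, limma 3.58.1 voom, other scalings and filters, a replicate block and each library left out. The members and the 26 gene lists and 5 marker lists were chosen with earlier results of these data known. Named genes were the 10 highest and 10 lowest differences at 1 log2 CPM or more in both lines with separated ratios, silent genes that came on (5 by level), genes called in opposite directions (up to 5), the genes the study names, and 3 per list. Other genes named with a list were chosen after their values were seen, and a few genes are not reported here. Drawn with matplotlib 3.10.9. Promoters are RefSeq sequences on GRCh38.p14, matched by symbol for 13497 genes.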

Additional observations from a re-analysis of the deposited data

Results flagged for a closer look

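The effect of decitabine differed between the lines, by a test of the difference itself, for 3626 genes. Of the genes named by rule, 4 given here moved in opposite directions with both line effects called: the difference was -2.48 log2 units for GLI2, -2.23 for FAM167A, -1.28 for KRT7 and -1.14 for TGM2, each lower in HUCCT1 and higher in EGI-1. With EGI-1 measured as combination against talazoparib, GLI2 was not called there (change 0.45, edgeR adjusted p = 0.634) and its difference was -1.36. Groups of 2 libraries are too small for an outlier test.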

How the results depend on the processing

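The count of 3626 genes with a called difference was within 1.5 times under every other scaling, filter, test and fit of 12 libraries (2926 to 4000), and rose to 5521 with a replicate block by title number and 5464 with one by the series in the EGI-1 library names. The titles number 2 libraries per arm, and deviations of same-numbered libraries correlated at 0.268 in HUCCT1 and 0.0657 in EGI-1, so the number is not shown to pair them. Leaving out 1 library gave 2152 to 3455 genes, the lowest without an EGI-1 vehicle library (2241 and 2152). Among the classes of interaction calls, genes called in HUCCT1 alone numbered 3479, and 2097 to 3281 with 1 library left out (2174 and 2097 without the first or the second EGI-1 vehicle library). The 75 genes of EGI-1 became 44 with upper-quartile factors, 192 without a filter, 28 at a mean of 1 log2 CPM or more, 385 and 425 with the blocks, 43 with EGI-1 fitted apart, 324 as combination against talazoparib, and 24 to 102 with 1 library left out (24 and 26 without a vehicle library, 46 without the second decitabine library). The percent of genes silent in vehicle that came on, 1.75% in HUCCT1 and 0.00326% in EGI-1, was 0.781% and 0% at 0 vehicle counts, and 0.535% and 0% at 30 counts with decitabine. Of the alternatives for named genes, 88 lost a call, 7 gained one and 1 reversed: PPP4R4 turned from -0.20, not called, to 2.89, called higher (edgeR adjusted p = 0.0398), with the EGI-1 effect taken as combination against talazoparib. The causes of these shifts were not tested.

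Limits: 2 libraries per arm, a dose that goes with the line, and genes at the floor in EGI-1, for which no difference of log2 changes can be estimated.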
